A study of Homo sapiens with 19 samples.

Results

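The genes encoding 8 transcription factors of blood stem and progenitor cells were examined: RUNX1, GATA2, TAL1, LYL1, LMO2, ERG, FLI1 and MYB. They were taken as a named list, 8 of 20028 protein-coding genes of GENCODE release 44 on the hg38 build, and all 8 were found. Their loci were defined as the gene record with 50 kb either side, and these held 796 of the 292523 peaks in 12 peak lists. The immediate surroundings of transcription were measured separately, as 10 kb either side of the start of the canonical transcript.

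The peaks came from CUT&RUN, in which an antibody-directed nuclease cuts out the chromatin that carries a mark, in MOLM-13, an established human acute myeloid leukaemia line with a rearranged KMT2A gene. For each of H3K27ac, H3K4me2 and H3K4me3 there were 2 libraries of cells given Corin at 0.1 µM for 24 h and 2 of cells given the vehicle DMSO for the same time. Corin blocks both enzymatic arms of the CoREST corepressor, its demethylase LSD1 and its histone deacetylases, and the comparison asks where these marks lie once CoREST is inhibited. The labels give the DMSO cells the same dose, whose meaning there is unclear, and the other 7 of the 19 samples (retinoic acid with Corin, LSD1 and IgG libraries) were not analysed here. Every library is of the same line, and nothing in the labels says that the 2 libraries of a group came from separate cultures, so the spread between them may be technical.

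RUNX1 and GATA2 bind DNA directly, TAL1 and LYL1 are basic helix-loop-helix factors that bind E boxes with a partner, LMO2 bridges them without touching DNA, and ERG and FLI1 are ETS factors. Together they occupy shared enhancers in stem and progenitor cells, often each other's, and MYB is a further progenitor factor on which many myeloid leukaemias depend. H3K27ac marks active enhancers and promoters, H3K4me2 marks both active and poised ones and is a substrate of LSD1, and H3K4me3 marks promoters.

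Depth is unknown beyond the labelled minimum number of reads per library, and no interval or detection limit could be derived from it. The Corin lists were longer than the DMSO lists for every mark. H3K27ac held 30029 to 34424 peaks over 20.1 to 26.1 Mb with Corin, against 17599 to 19995 peaks over 11.1 to 12.6 Mb with DMSO. H3K4me2 covered 42.2 to 47.4 Mb against 33.4 to 36.6 Mb, and H3K4me3 15.2 to 15.7 Mb against 14.2 to 14.96 Mb. Coverage is therefore given both in bp and as a share of all bp covered in the same list, and on the second scale several directions turn. H3K4me3 peaks lay within 1 kb of the start of 8 of 10 myeloid marker genes in all 4 libraries (CSF2RA and MPO had none in any), and of 0 of 10 markers of other cell types in any library. H3K27ac peaks lay at 1 of the latter, PECAM1, in all 4 libraries. Among the myeloid markers CSF2RA had no H3K27ac peak, MEIS1 had a peak in 1 library and LYZ in 3. The other myeloid markers, MPO among them, had one in all 4.

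Sequences of 3 regions on which the results turn are printed first, followed by the promoters at which the marks lie. Each region sequence is 300 bases centred on the stretch of its region covered in both Corin libraries, which need not be the middle of the region. The LMO2 and RUNX1 sequences labelled gained are from the widest H3K27ac region near each gene that was called in both Corin libraries and in neither DMSO library. The RUNX1 sequence labelled kept is from the widest H3K27ac region called in all 4 libraries within an intron of the canonical transcript and over 1 kb from any start. The promoters are the 250 bases before a start in RefSeq (GRCh38.p14), whose table held 6 of the 8 genes: the internal starts of RUNX1 and GATA2, which carry their wide H3K4me3 peaks, and a TAL1 start marked by H3K4me2 alone. All are on the minus strand and written 5′ to 3′ along the gene. Capitals mark matches on either strand to 6 motifs. The GATA motif searched was AGATAA, and the ETS motif was GGAAGT. The RUNX motif was TGTGGT. The first E box was CAGCTG, and the other E box of the helix-loop-helix factors was CATCTG. The MYB motif was CAACTG, which is itself of the general E box form.
LMO2 gained, chr11:33900544-33900843: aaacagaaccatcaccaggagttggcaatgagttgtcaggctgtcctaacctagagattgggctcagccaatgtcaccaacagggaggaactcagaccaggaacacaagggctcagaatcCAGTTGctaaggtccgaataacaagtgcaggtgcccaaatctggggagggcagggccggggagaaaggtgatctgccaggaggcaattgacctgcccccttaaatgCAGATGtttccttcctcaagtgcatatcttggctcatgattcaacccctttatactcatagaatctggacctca
RUNX1 gained, chr21:34984339-34984638: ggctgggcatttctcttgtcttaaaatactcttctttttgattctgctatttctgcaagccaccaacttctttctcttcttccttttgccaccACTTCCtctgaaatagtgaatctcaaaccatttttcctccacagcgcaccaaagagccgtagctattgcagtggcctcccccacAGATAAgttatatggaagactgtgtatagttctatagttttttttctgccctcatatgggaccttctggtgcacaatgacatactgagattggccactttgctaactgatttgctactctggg
RUNX1 kept, chr21:34910156-34910455: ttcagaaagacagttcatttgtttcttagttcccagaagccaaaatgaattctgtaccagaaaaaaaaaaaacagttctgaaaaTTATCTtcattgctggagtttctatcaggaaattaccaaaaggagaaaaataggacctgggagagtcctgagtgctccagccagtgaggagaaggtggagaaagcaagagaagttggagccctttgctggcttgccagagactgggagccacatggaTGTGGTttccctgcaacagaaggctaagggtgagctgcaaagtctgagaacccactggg
RUNX1 promoter, chr21:34888700-34888949: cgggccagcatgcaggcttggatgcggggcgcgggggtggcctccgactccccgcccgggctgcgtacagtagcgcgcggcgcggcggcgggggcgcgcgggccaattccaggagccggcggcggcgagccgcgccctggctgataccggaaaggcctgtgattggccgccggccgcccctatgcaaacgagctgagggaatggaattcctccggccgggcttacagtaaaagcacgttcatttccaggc
GATA2 promoter, chr3:128488531-128488780: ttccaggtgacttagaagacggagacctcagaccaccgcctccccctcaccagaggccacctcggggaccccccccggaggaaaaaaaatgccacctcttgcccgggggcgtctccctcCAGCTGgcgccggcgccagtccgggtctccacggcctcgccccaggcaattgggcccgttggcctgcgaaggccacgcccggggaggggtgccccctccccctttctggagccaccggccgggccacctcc
TAL1 promoter, chr1:47231716-47231965: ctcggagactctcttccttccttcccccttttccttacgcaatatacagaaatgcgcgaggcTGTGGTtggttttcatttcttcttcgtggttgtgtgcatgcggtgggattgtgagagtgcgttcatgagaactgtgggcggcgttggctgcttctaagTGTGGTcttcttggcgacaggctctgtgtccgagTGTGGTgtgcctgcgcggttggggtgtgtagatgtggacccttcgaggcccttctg

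The LMO2 sequence lies between genes, its region at -8.47 kb from the start, and holds 1 CATCTG E box and 1 MYB motif. The gained RUNX1 sequence lies in an intron 64.9 kb into the gene and holds 1 GATA and 1 ETS motif, while the kept one, 139 kb into the gene, holds 1 GATA and 1 RUNX motif. Such short motifs are common: of 41587 H3K27ac regions cut to 300 bases around their midpoints, 12.3% held the GATA motif, 22.8% the ETS, 20.0% the RUNX, 18.5% the CATCTG and 14.0% the MYB motif. The printed TAL1 promoter holds 3 copies of the RUNX motif, which 11% of 35116 RefSeq promoters hold. Another TAL1 promoter in RefSeq, not printed, holds 1 GATA motif and no RUNX motif. The printed GATA2 promoter holds 1 CAGCTG E box (14.0% of promoters). The GATA2 promoter before the canonical start, not printed, and the RUNX1 promoter hold none of the 6 motifs. A match is a string of letters and not a bound site, and the absence of one says only that these letters are not in the window. The widest gained regions of MYB and FLI1 are not printed because part of their sequence is repetitive. In the 300 bases of the MYB region placed by the same rule, 4 of 10 stretches of 30 bases occur once in the genome.

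Acetylation around the starts was higher after Corin at 6 of the 8 genes, in the sense that both Corin libraries lay above both DMSO libraries: MYB, LYL1, LMO2, FLI1, RUNX1 and GATA2. TAL1 and ERG had no H3K27ac peak there in any library. The same call was met by 29.0% of all protein-coding genes and by 54.5% of those with an H3K27ac peak in the window, and the 6 genes had a median log2 ratio of 0.68 against 0.746 over all covered genes, so their shift was about that of genes in general. As a share of the bp covered, 0 of the 6 stayed higher, MYB, LYL1 and LMO2 were lower and the other 3 overlapped (8.75% of all genes were higher and 13.3% lower on this scale). At a matched number of peaks MYB, LYL1 and LMO2 were higher and RUNX1 was lower (16.9% and 1.69% of all genes). In bp, 0 of the 8 were lower (0.315% of all genes were). An exact two-sided permutation test of 2 libraries against 2 has 6 arrangements and cannot give a p below 0.333, so no gene can pass 0.05 by this test, and no other test of single genes was run.

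**Figure D1:**
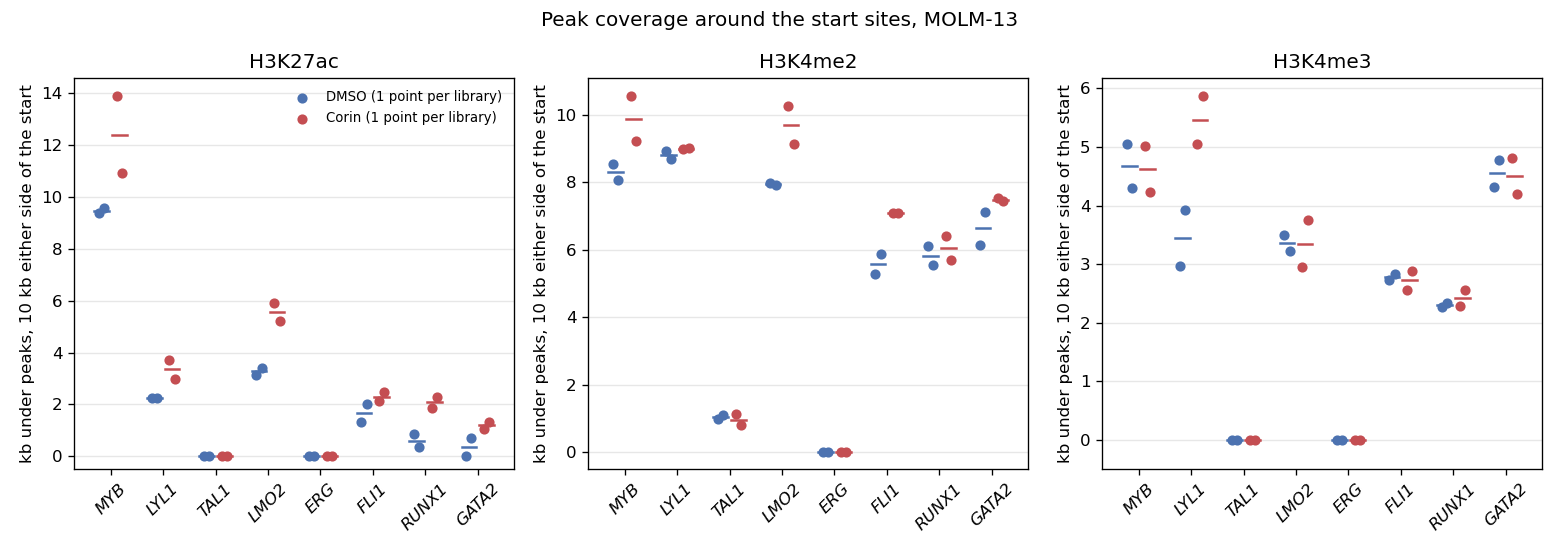
Kilobases under peaks within 10 kb either side of the canonical start, for each gene and mark. Each point is 1 library (blue DMSO, red Corin) and each bar the mean of 2; for H3K27ac both red points lie above both blue ones at 6 genes, for H3K4me3 at LYL1 only, and TAL1 and ERG sit at 0 for both of those marks.

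RUNX1, the runt-domain factor needed for blood stem cells to form, had little acetylation at its canonical start in DMSO. The H3K27ac peaks there covered 1860 and 2295 bp in the Corin libraries and 848 and 349 bp in the DMSO libraries. Both Corin values were above both DMSO values, with a log2 ratio of 1.80 ± 0.88 (SD of the ratio, n = 2 a group, as for every ratio below). Without DMSO replicate 1 the ratio was 2.57, and without DMSO replicate 2 it was 1.29. These peaks were low scoring: when every H3K27ac list was reduced to its 17599 top-scoring peaks, both Corin libraries fell to 0 bp while the DMSO libraries kept 848 and 349, so the order turned. The DMSO replicate 1 list, the shortest, was not reduced there, and with peaks of score 100 or more only, RUNX1 had 0 bp in all 4 libraries. On the share scale (0.83 ± 1.06) the groups overlapped.

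GATA2, a zinc-finger factor of stem cell maintenance, had 1071 and 1305 bp of H3K27ac with Corin and 0 and 706 bp with DMSO. The groups did not overlap, but 1 of the 2 DMSO libraries had no peak at all, and the ratio of 1.75 ± 2.05 rests on that library: against DMSO replicate 2 alone it was 0.75. At the matched number of peaks it was -0.08, with the values of the 2 groups overlapping.

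LMO2, the bridging LIM-domain protein, had 5900 and 5217 bp with Corin and 3140 and 3400 bp with DMSO. This was the tightest of the 6 differences, 0.77 ± 0.15, and the order held at the matched number of peaks (0.59) but turned on the share scale (-0.19 ± 0.15). LYL1, the TAL1-related helix-loop-helix factor, had 3731 and 2981 bp against 2260 and 2245 bp. Its ratio was 0.58 ± 0.23 in bp and -0.40 ± 0.14 as a share.

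Within 10 kb of the start, MYB carried more H3K27ac than any other of the 8 genes in every library, with 13870 and 10915 bp with Corin and 9358 and 9573 bp with DMSO. Peaks thus took up 69.3% and 54.6% of its window in the Corin libraries and 46.8% and 47.9% in the DMSO libraries. The ratio of 0.39 ± 0.24 was below the median of all genes, and as a share of the bp covered MYB was lower in both Corin libraries (-0.58 ± 0.11). FLI1, an ETS factor of progenitors and megakaryocytes, had 2118 and 2481 bp against 1313 and 2029 bp, a ratio of 0.46 ± 0.47 that turned to -0.45 ± 0.52 on the share scale, where the groups overlapped.

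H3K4me2, the mark that LSD1 removes, was higher with Corin at 5 genes: FLI1, LMO2, MYB, GATA2 and LYL1. RUNX1 and TAL1 overlapped between groups and ERG had no peak in its window. Among all genes 28.2% met the call, and 39.6% of those with a peak in the window, and the median ratio of the 7 covered genes was 0.17 against 0.148 over all genes. In bp, 0 of the 8 were lower (2.78% of all genes were). On the share scale 0 were higher (6.88% of all genes) and 4 (LYL1, TAL1, RUNX1 and GATA2) were lower, a call met by 32.8% of all genes. In a window of 5 kb either side only LYL1 and GATA2 stayed higher, and no share of all genes was taken there. With same-numbered libraries compared as pairs, LMO2, FLI1 and RUNX1 were higher in that window too.

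FLI1 had 7087 and 7098 bp with Corin and 5290 and 5866 bp with DMSO, the widest relative difference of the 5 at 0.35 ± 0.11. Around the 5′ end of the FLI1 gene record the ratio was 0.06, and with 5 kb either side of the canonical start it was 0.18. LMO2 had 10246 and 9127 bp against 7969 and 7908 bp (0.29 ± 0.12), and MYB 10542 and 9220 bp against 8526 and 8071 bp (0.25 ± 0.15). All 3 turned to between -0.11 and -0.0033 on the share scale, with overlapping groups. GATA2 had 7517 and 7443 bp against 6148 and 7129 bp, which was 0.17 ± 0.15 in bp and -0.18 ± 0.12 as a share. Both at the matched number of peaks and with peaks of score 100 or more only, GATA2 had 6884 and 6859 bp with Corin, so the groups overlapped. MYB, LYL1, LMO2 and FLI1 were higher under both settings. At the matched number 21.8% of all genes were higher and 5.40% lower, and for the score cut no such share was taken.

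LYL1 was barely separated, with 8969 and 9011 bp with Corin against 8920 and 8682 bp with DMSO. The region is a single block over the whole small gene and beyond, and its H3K4me2 peak was the 7th to 71st widest of its list in the 4 libraries. RUNX1 had 6406 and 5700 bp against 6106 and 5546 bp, with Corin replicate 2 below DMSO replicate 1. Within same-numbered pairs both differences were upward, so the replicate block counts RUNX1 as higher too (6 genes in place of 5), but as a share RUNX1 was lower (-0.31). TAL1, the helix-loop-helix factor that nucleates the complex with LMO2, had 1125 and 819 bp against 989 and 1104 bp, also overlapping.

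H3K4me3 was higher at LYL1 alone, against 14.7% of all genes and 25.8% of those covered. It covered 5044 and 5876 bp with Corin and 2977 and 3916 bp with DMSO, a ratio of 0.66 ± 0.32 that stayed higher on the share scale (0.59 ± 0.29, a call met by 8.04% of all genes) and at a matched number of peaks (0.90), and was 1.44 with peaks of score 100 or more only. The extra coverage lay mostly at the 3′ end of the 4.13 kb gene, where a region 3.66 kb from the start covered 2265 and 2787 bp with Corin and 983 and 1030 bp with DMSO. That region also overlaps an exon of the neighbouring gene NFIX. At the LYL1 start itself the H3K4me3 region covered 2433 and 2085 bp against 1778 and 2254 bp, and the groups overlapped.

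The other 5 marked starts overlapped between groups, and 0 were lower (4.77% of all genes). MYB had 5016 and 4232 bp of H3K4me3 with Corin and 5046 and 4292 bp with DMSO, and GATA2 4811 and 4203 bp against 4315 and 4785 bp. LMO2, FLI1 and RUNX1 had log2 ratios of -0.01 ± 0.26, -0.03 ± 0.13 and 0.07 ± 0.12. With same-numbered libraries compared as pairs, RUNX1 joined LYL1 as higher (2 genes in place of 1) and MYB became lower (1 in place of 0). Without Corin replicate 1 the count of higher genes would be 4, and without Corin replicate 2 or DMSO replicate 2 it would be 2. Over the 6 covered genes the median was -0.01, against 0.058 for all genes.

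**Figure D2:**
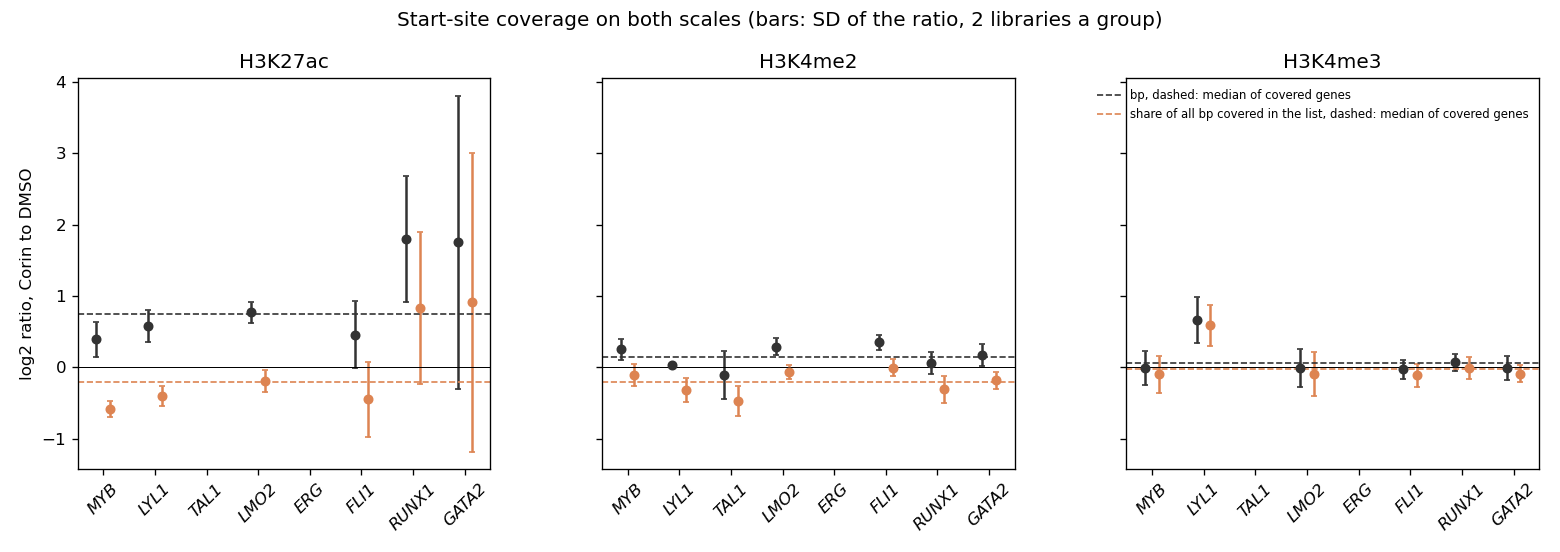
The log2 ratio of Corin to DMSO in the window around each start, in bp (black) and as a share of all bp covered in the list (orange), with bars of 1 SD of the ratio (2 libraries a group). Dashed lines are the medians of all covered genes on each scale: most H3K27ac and H3K4me2 points lie above 0 in bp and below it as a share, while LYL1 H3K4me3 lies above 0 on both.

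The start sites differed in which marks they carried. RUNX1 has a distal start, the canonical one, and internal starts 161 and 162 kb into the gene, and both sets had H3K4me3 in all 4 libraries. The internal peak was far the wider, 8637 and 7234 bp with Corin and 7875 and 7289 bp with DMSO, against 2280 and 2349 bp and 2263 and 2342 bp at the distal start. It ranked 5th and 7th by width among all H3K4me3 peaks in the 2 Corin libraries and 5th and 7th in the 2 DMSO libraries. H3K4me2 was called within 1 kb of these internal starts in DMSO replicate 2 only and lay instead on the flanks, 158 and 166 kb into the gene, in all 4 libraries. H3K27ac within 1 kb of the start at 161 kb covered 1703 and 627 bp with Corin and 284 and 0 bp with DMSO. The groups did not overlap, with DMSO replicate 2 at 0. How many of all starts meet this call was not counted. The call was not repeated on the share scale or at the matched number of peaks.

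**Figure D3:**
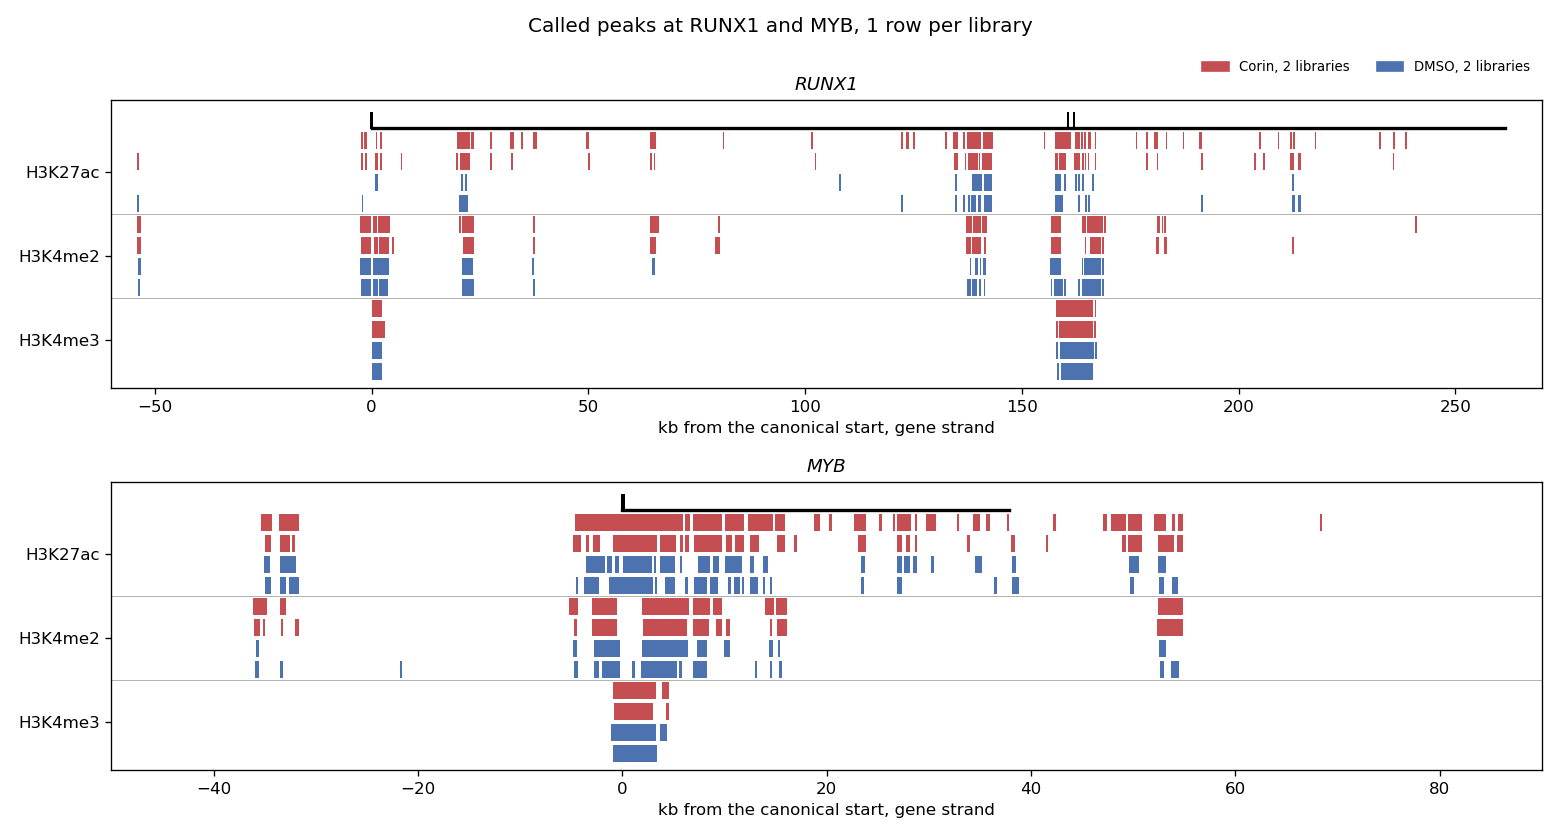
Peaks called at RUNX1 and MYB, drawn by distance in kb from the canonical start along the gene strand, 1 row per library in the order Corin 1, Corin 2, DMSO 1, DMSO 2 within each mark. The black line is the canonical transcript and ticks are annotated starts; the wide H3K4me3 block of RUNX1 lies at the internal starts near 162 kb, and H3K27ac over MYB runs from before the start into the gene body.

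GATA2 also had its wider H3K4me3 peak at an internal start. That start, 4.67 kb into the gene, had an H3K4me3 peak of 3818 and 3653 bp with Corin and 3381 and 3942 bp with DMSO, while the peak at the canonical start was 993 and 550 bp against 679 and 843 bp. Unlike at RUNX1, H3K4me2 covered the GATA2 internal start in all 4 libraries (2591 and 2513 bp within 1 kb with Corin, 2228 and 2443 bp with DMSO). H3K27ac lay within 1 kb of the internal start only, in 3 libraries. A separate acetylated region at -30.7 kb from the GATA2 start was called in all 4 libraries, with 2437 and 2042 bp against 1852 and 2058 bp.

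LMO2 has a second start 22.3 kb into the gene with H3K4me3 in all 4 libraries. H3K27ac within 1 kb of it covered 930 and 1731 bp with Corin and 9 and 1423 bp with DMSO, so that the groups overlapped and DMSO replicate 1 was low. FLI1 had all 3 marks at its canonical start, whereas its upstream start, at -7.54 kb from it, had H3K4me2 alone (1637 and 1504 bp within 1 kb with Corin, 1617 and 1401 bp with DMSO).

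TAL1 and ERG stood apart from the other 6 genes in having neither H3K27ac nor H3K4me3 at any annotated start. TAL1 had H3K4me2 over its first start in all 4 libraries, in a merged region of 1287 bp that spans the printed promoter. ERG, an ETS factor of stem cells and megakaryocytes, had H3K4me2 only at its most upstream starts, at -162 and -163 kb from the canonical one, with 543 and 583 bp with Corin and 419 and 677 bp with DMSO. The starts of both genes were thus marked in the same places with and without Corin.

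**Figure D4:**
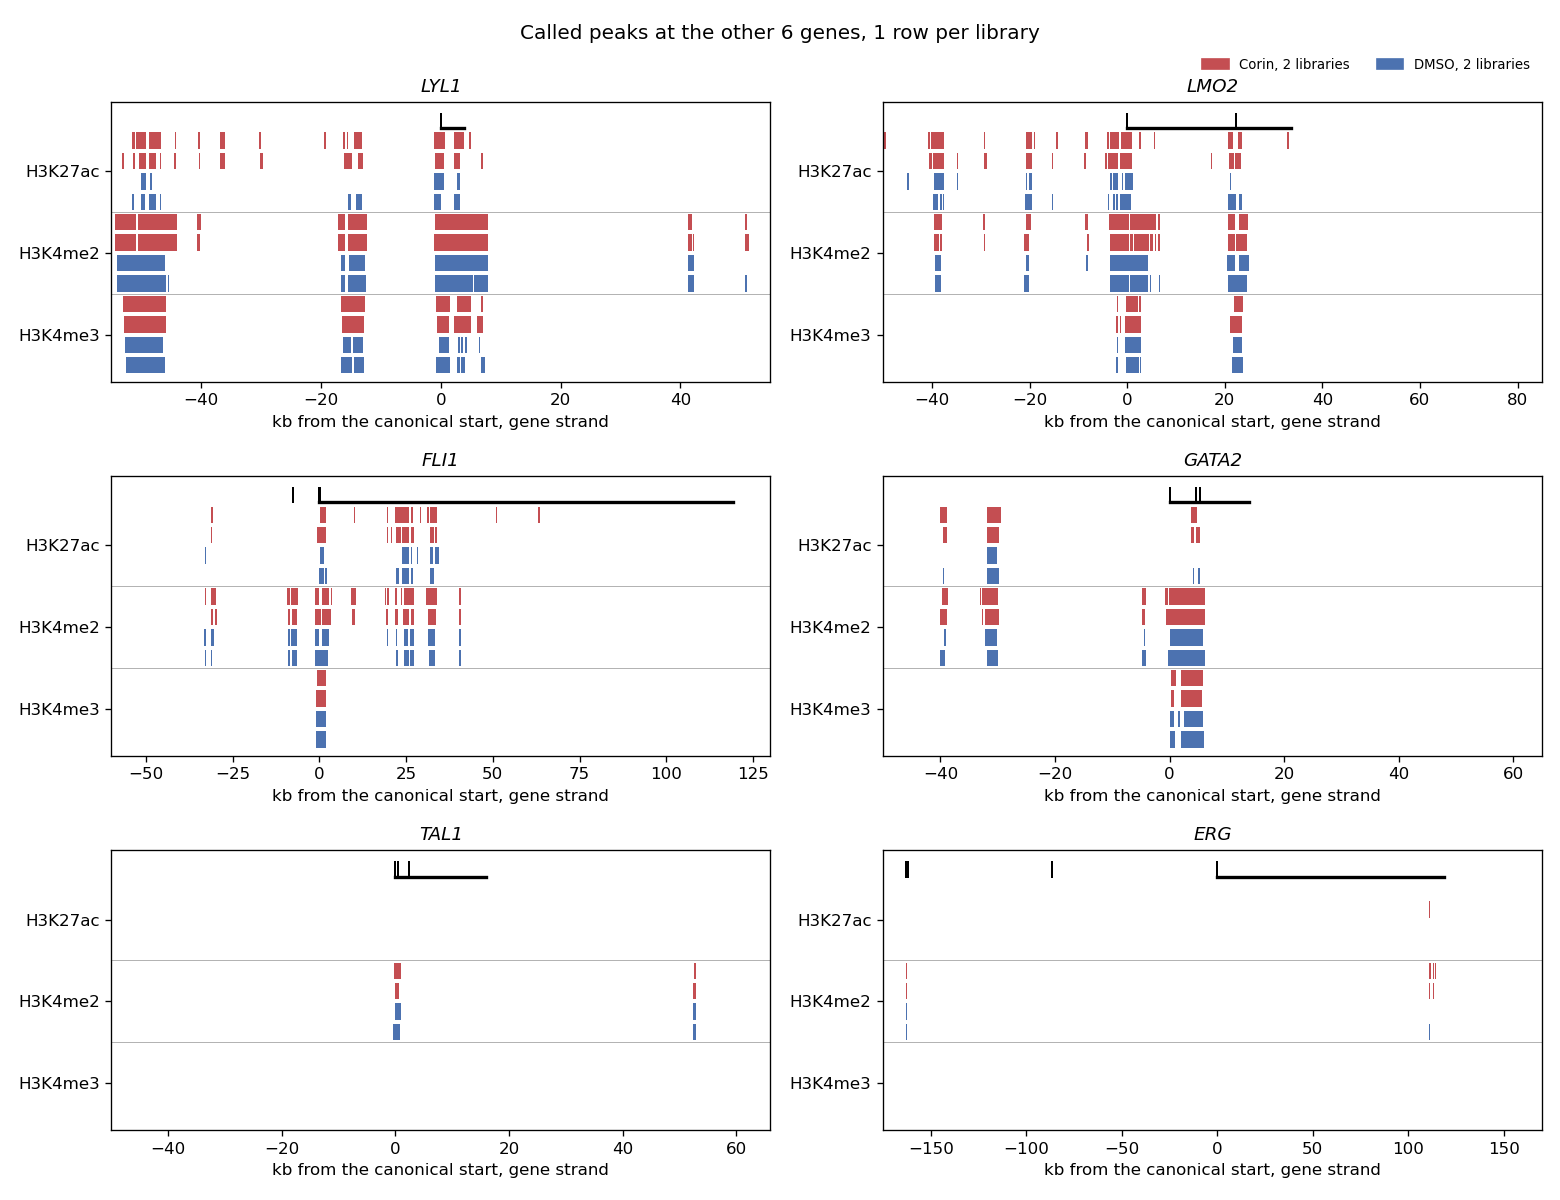
Peaks called at LYL1, LMO2, FLI1, GATA2, TAL1 and ERG by distance in kb from the canonical start, 1 row per library as in the map of RUNX1 and MYB. TAL1 has H3K4me2 only, and ERG has H3K4me2 and a single H3K27ac peak in 1 Corin library. Some blocks upstream of LYL1 lie at the starts of neighbouring genes, while the gained H3K27ac regions there lie over 1 kb from any annotated start.

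Over the whole loci, H3K27ac was higher with Corin at 6 genes (55.3% of all genes) and H3K4me2 at 7 (49.6%), and the exceptions were TAL1 for both marks and ERG for H3K27ac. RUNX1, whose annotated record spans 1217 kb because of long transcripts that start far upstream, had 43400 and 29244 bp of H3K27ac with Corin and 14746 and 16433 bp with DMSO. Its ratio of 1.22 ± 0.41 was the largest of the locus ratios for this mark, above the all-gene median of 0.925, and RUNX1 was the 1 gene that stayed higher on the share scale (0.24 ± 0.14, 16.2% of all genes). On that scale MYB and FLI1 (-0.29 ± 0.19) were lower (also 16.2% of all genes), and in bp the median of the 6 genes with a ratio was 0.80, below that of all genes. MYB had 34499 and 23065 bp against 18881 and 17368 bp, which was 0.67 ± 0.41 in bp and -0.32 ± 0.26 as a share.

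H3K4me2 over the loci had a median ratio of 0.43 for the 8 genes, against 0.243 for all genes. MYB (0.19 ± 0.07), FLI1 (0.17 ± 0.13), RUNX1 (0.17 ± 0.14) and ERG (0.87 ± 0.75) were also higher as a share of the bp covered, a call met by 14.8% of all genes, while LMO2 (-0.14 ± 0.06) and TAL1 (-0.37 ± 0.10) were lower (33.2% of all genes). ERG moved from a low base, 1645 and 1590 bp with Corin and 419 and 988 bp with DMSO, within a locus of 382 kb. H3K4me3 over the loci was higher at LYL1 and RUNX1 (23.2% of all genes), and on the share scale at LYL1 alone (12.3%), with RUNX1 at 0.01 ± 0.15 and its groups overlapping.

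Merging the 4 lists of a mark gave 146 H3K27ac regions in the loci, of which 22 were called in both Corin libraries and neither DMSO library (15.1%, against 11.5% of all H3K27ac regions) and 0 in the opposite pattern (0.180% of all). A further 44 were called in Corin replicate 1 only and 13 in Corin replicate 2 only, patterns held by 10545 and 5452 of all 41587 H3K27ac regions. Without Corin replicate 2 the count of gained regions would be 70, without Corin replicate 1 it would be 38, and without DMSO replicate 2 it would be 35. At the matched number of peaks 4 were gained, where 4.49% of all regions were, and with peaks of score 100 or more only, 13. For H3K4me2, 10 of 97 regions were gained (10.3%, against 9.64%) and 0 lost (0.158% of all). At the matched number of peaks 4 were gained and 2 lost (3.91% and 1.70% of all regions), 18 were gained with peaks of score 100 or more only, and 17 when a call needed at least 50% of a region covered. Without Corin replicate 1, Corin replicate 2 or DMSO replicate 1 the H3K4me2 count would be 20, 26 or 16. For H3K4me3, 0 of 19 regions were gained and 0 lost (1.49% and 0.289% of all), and 14 were in all 4 libraries. Without Corin replicate 1 or DMSO replicate 1 the H3K4me3 count would be 2, and with peaks of score 100 or more only it would be 3. Shares of all regions were not taken for the score cut, the 50% rule or the sets without a library. Those counts therefore have no background here. The score cut left 35028 and 34002 H3K4me2 peaks with Corin and 25609 and 27650 with DMSO.

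RUNX1 held 12 of the 22 gained H3K27ac regions, among its 65. All 12 lay in RUNX1 introns. The widest were 1299 bp at chr21:34983717-34985015, 64.9 kb into the gene, then 921 bp at chr21:34867780-34868700 at 181 kb and 846 bp at chr21:35016492-35017337 at 32.4 kb. Coverage of the widest was 1299 and 627 bp in the 2 Corin libraries, and H3K4me2 was already called there in DMSO replicate 1. The region at 181 kb was gained in H3K4me2 as well, over 701 bp (chr21:34867535-34868235). The wider of its 5 gained H3K4me2 regions were 1091 bp at -426 kb (chr21:35475108-35476198), in an intron of the long transcripts, and 958 bp at 79.8 kb (chr21:34969020-34969977). By contrast the acetylated intronic regions at 139 kb, which holds the printed kept sequence, and at 142 kb were in all 4 libraries, with 3269 and 2737 bp against 2160 and 2447 bp for the first. A wider region of 4403 bp at -515 kb (chr21:35561643-35566045), in an intron of the long transcripts, was also in all 4.

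MYB had 2 gained H3K27ac regions. The widest was 1486 bp between genes, 48.5 kb beyond the start (chr6:135229115-135230600), with 1477 and 439 bp in the Corin libraries, directly before a region that was acetylated in all 4. The other was 1017 bp over an exon at 15.5 kb (chr6:135196254-135197270), where H3K4me2 was called in all 4 libraries. A gained H3K4me2 region of 934 bp lay at 9.29 kb (chr6:135190132-135191065), where H3K27ac was called in all 4. The 1486 bp region had no H3K4me2 peak in any library.

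LMO2 had gained H3K27ac regions of 827 bp at -8.47 kb (chr11:33900132-33900958) and 751 bp at -29.0 kb (chr11:33920699-33921449) from its start. The first covered 654 and 356 bp in the Corin libraries, whose peaks shared 183 bp, and the second covered 242 and 751 bp and was gained in H3K4me2 too, over 592 bp (chr11:33921110-33921701). The acetylated region at -39.2 kb, in contrast, was in all 4 libraries with 3135 and 2744 bp against 2093 and 1574 bp.

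FLI1 had the widest gained H3K4me2 region of the 8 loci, 1401 bp in an intron 9.72 kb from the start (chr11:128703093-128704493), with 1401 and 766 bp in the Corin libraries. H3K27ac was called there in Corin replicate 1 only. Its 2 gained H3K27ac regions, 491 bp at -31.1 kb (chr11:128662756-128663246) and 430 bp at 19.7 kb (chr11:128713530-128713959), both had H3K4me2 in at least 1 DMSO library. ERG gained 389 bp of H3K4me2 in an intron 113 kb from its canonical start (chr21:38384962-38385350), and GATA2 and TAL1 gained no region of either mark.

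The 4 gained H3K27ac regions in the LYL1 locus lay nearer to the starts of NACC1 and STX10 than to that of LYL1, between -30.1 and -44.3 kb from it. The widest was 932 bp in an exon of NACC1 (chr19:13138813-13139744), followed by 599 bp in an intron of that gene (chr19:13132609-13133207). The next, of 412 bp between genes (chr19:13142992-13143403), was also gained in H3K4me2, over 590 bp. Of all 22 gained H3K27ac regions 13 lay in an intron of the gene itself, 5 between genes and 2 within 1 kb of any annotated start (22.3% of the 4798 gained H3K27ac regions in the genome lay that near). H3K4me2 was called in both DMSO libraries at 5 of them (39.0% of gained H3K27ac regions in the genome), was itself gained at 4 (8.48%) and was in no library at 9 (35.7%).

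**Figure D5:**
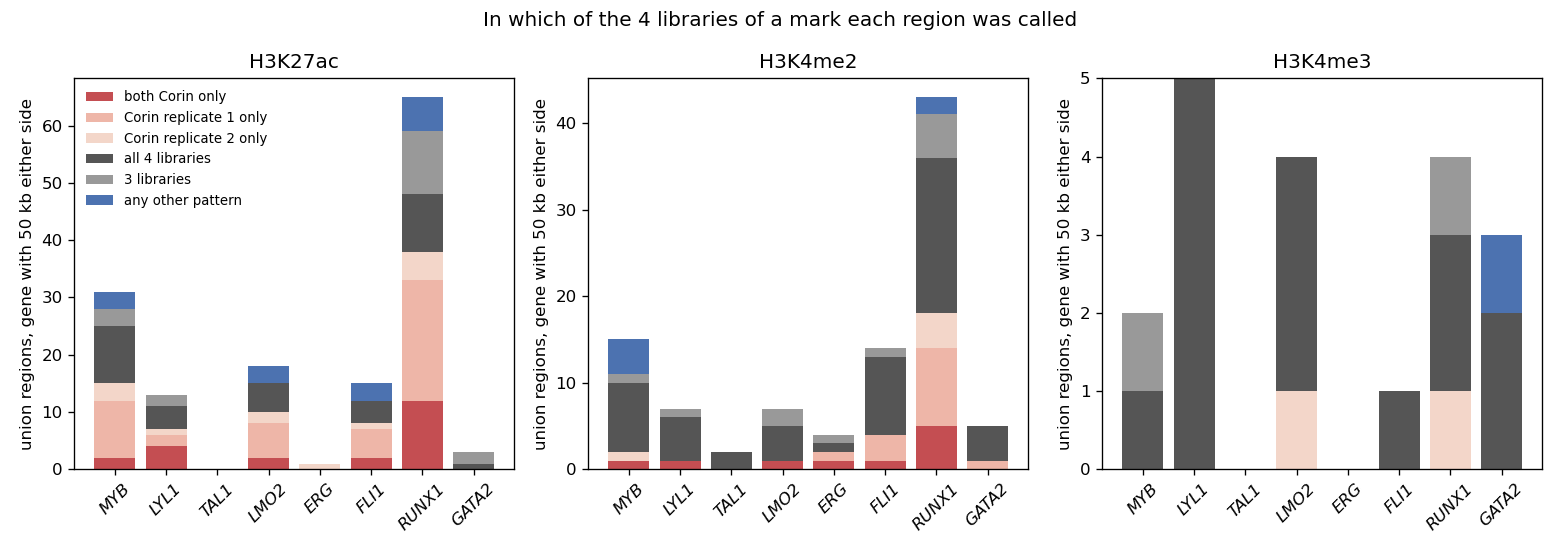
The number of merged regions in each locus by the libraries in which they were called, 1 panel per mark. Red is called in both Corin libraries only and pale red in 1 Corin library only; RUNX1 holds the most regions of H3K27ac and H3K4me2, and H3K4me3 regions are mostly in all 4 libraries (dark grey).

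The same measure was taken in the start windows of other genes of this network. The background for each list is the share of all genes: in bp 29.0% were higher and 0.315% lower for H3K27ac, 28.2% and 2.78% for H3K4me2, and 14.7% and 4.77% in H3K4me3. As a share of bp covered the values were 8.75% and 13.3%, 6.88% and 32.8%, and 8.04% and 11.3%. Of 12 genes whose products form complexes with these factors, H3K27ac was higher at 3 and lower at 0, H3K4me2 at 4 and 2, and H3K4me3 at 5 and 2. Their median log2 ratios in that order were 0.45, 0.09 and 0.05, against 0.746, 0.148 and 0.058 over all genes. LDB1, the adaptor that LMO2 binds, had 5567 and 4637 bp of H3K27ac with Corin and 1554 and 2089 bp with DMSO (1.49 ± 0.35), and it was higher on the share scale too. CREBBP, the acetyltransferase, had less H3K4me3, 1870 and 1562 bp against 2036 and 2150 bp (-0.29 ± 0.19), without an H3K27ac peak in any library. On the share scale 1 of the 12 was higher and 4 lower for H3K27ac, 0 and 9 for H3K4me2, and 1 and 4 by H3K4me3.

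Of 15 other progenitor factors, H3K27ac was higher at 7 and lower at 0, H3K4me2 at 4 and 3, and H3K4me3 at 3 and 0, with medians of 0.64, 0.08 and 0.09. NFE2, a leucine-zipper factor of megakaryocytes, was higher for all 3 marks, with H3K27ac at 9455 and 6573 bp against 2761 and 3804 bp (1.29 ± 0.49) and H3K4me3 at 2029 and 1535 bp against 1057 and 1027 bp (0.77 ± 0.28). GFI1, a repressor that recruits CoREST, had more H3K27ac (12725 and 10612 bp against 7076 and 7933 bp) and less H3K4me2 (6668 and 7021 bp against 7061 and 9454 bp). On the share scale its H3K27ac turned to lower. Of the 15, 1 was higher for each mark on that scale, and 4 were lower by H3K27ac, 8 by H3K4me2 and 1 by H3K4me3.

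Among 11 paralogues of the 8 genes, H3K27ac was higher at 4 and lower at 0, H3K4me2 at 4 and 1, and H3K4me3 at 2 and 1, with medians of 2.38 (over 3 genes), 0.20 and 0.14. ETS2 had 1184 and 811 bp of H3K27ac with Corin against 0 and 220 bp, and RUNX3 had 1620 and 1589 bp of H3K4me3 against 1373 and 1429 bp (0.20 ± 0.05) without any H3K27ac peak. ETS2 also had more H3K4me2 but less H3K4me3 (1801 and 1731 bp against 1921 and 1945 bp). RUNX3 had less H3K4me2 (2332 and 2127 bp against 2372 and 2986 bp). On the share scale 2 paralogues were higher and 0 lower by H3K27ac, 0 and 3 by H3K4me2, and 1 and 1 by H3K4me3. Of 10 myeloid maturation factors, H3K27ac was higher at 5, H3K4me2 at 4 and H3K4me3 at 5, and H3K4me3 was lower at 1, with medians of 0.53, 0.13 and 0.16. SPI1, the myeloid ETS factor PU.1, had 4132 and 4295 bp of H3K4me3 against 2841 and 3081 bp (0.51 ± 0.09), and CEBPE 7302 and 5949 bp of H3K4me2 against 3719 and 3357 bp (0.91 ± 0.23). Both stayed higher on the share scale, where this list had 1 gene higher and 3 lower by H3K27ac, 1 and 6 by H3K4me2, and 4 and 1 by H3K4me3. The difference between these lists and the 8 genes was not tested.

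Coverage of 5 of the 8 genes was above 0 in all 12 libraries, so that the gene most like each could be found among 6203 such genes. After the mean of each mark was subtracted, the highest Pearson correlation over the 12 libraries was 0.985 for MYB with TRIM13, 0.984 for LMO2 with DEDD, 0.973 for FLI1 with ITGB2, 0.950 for RUNX1 with TMEM9B and 0.924 for LYL1 with CD4. These are descriptions: each is the best of 6203 genes over 12 libraries, and all genes share the difference in list length between treatments. TAL1, ERG and GATA2 were not covered in every library.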

How the data were processed

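CUT&RUN peak lists of 12 MOLM-13 libraries were used, 1 list per library, with the position and a score of each peak. Per the submitters' processing notes, Trim Galore, Bowtie2, Picard and MACS2 were used on hg38 (GRCh38); versions, control and threshold are not given in the sources used here. The deposited scores are whole numbers, none under 50, with no stated definition. For the matched number of peaks they were ranked only among peaks of the same list. The score cut instead applied the same value to every list, and whether scores share a scale between lists was not tested. That cut left 20620 and 18690 H3K27ac peaks with Corin and 8388 and 10734 with DMSO. The files hold no read counts, so whether depth differed between lists was not tested.

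The bp under merged peaks was summed in each window per library with Python 3.11.15 and NumPy 2.4.6, and the procedure was tested on simulated data. A gene was called higher when both Corin libraries exceeded both DMSO libraries, and lower in the opposite case. The log2 ratio is that of the group means, with the SD propagated from both groups. Exact permutation tests used SciPy 1.17.1. The lists of a mark were merged into regions, and overlap by 1 bp counted as called. Same-numbered libraries deviated together from their group means (correlations over genes were 0.293 in H3K27ac, 0.314 in H3K4me2, 0.234 in H3K4me3). Numbers were therefore treated as pairing libraries in an alternative, the replicate block, although what a number shares is not given in the labels. The main calls, the SDs and the permutation tests did not use the pairing.

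All 8 genes are named; of gained regions the 3 widest per gene and mark, and of the other lists the 2 genes with the largest separated change per mark, of which some are described. The genes and lists were chosen with earlier results of these data known. Alternatives were a matched number of peaks (17599, 30896 and 11104 for the 3 marks, ties by position), a score of at least 100, 5 kb windows, other starts, the share of all bp covered, at least 50% of a region covered, other locus extents, the replicate block and leaving out each library.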

Additional observations from a re-analysis of the deposited data

How the results depend on the processing

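Of 184 values of single genes under the alternatives, 146 kept their sign within 1 SD of the ratio given, 10 kept it and moved further, 11 changed sign where the groups did not overlap and 17 where they did. On the share scale H3K27ac turned to -0.58 for MYB, -0.40 for LYL1, -0.19 for LMO2 and -0.45 for FLI1, and H3K4me2 to -0.11 for MYB, -0.32 for LYL1, -0.07 for LMO2, -0.0033 for FLI1, -0.31 for RUNX1 and -0.18 for GATA2. At the matched number of peaks GATA2 H3K27ac was -0.08, and with 5 kb windows MYB H3K4me2 was -0.01. The cause was not tested.

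Counts of genes moved as follows. For H3K27ac, higher fell from 6 to 3 at the matched number and 0 as a share, and lower went from 0 to 1 and 3. For H3K4me2, higher fell from 5 to 2 with 5 kb windows and 0 as a share, and lower went from 0 to 4 as a share and ranged from 0 to 1 without each library. For H3K4me3, higher went from 1 to 2 over all basic starts and from 1 to 4 without each library, and lower from 0 to 2 without each library. With the replicate block H3K4me3 had 2 higher and 1 lower, RUNX1 was added to H3K4me2 (6 higher), and no other call of the main setting changed. Under other settings the block turned FLI1 H3K27ac from overlapping to higher at the matched number and with 5 kb windows. It did the same for LMO2, FLI1 and RUNX1 H3K4me2 with 5 kb windows.

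Gained H3K27ac regions numbered 4 at the matched number, 13 at the stricter score and 28 to 70 without each library, with 1 to 6 lost in place of 0. Gained H3K4me2 regions numbered 4 (matched number), 18 (stricter score), 17 (at least 50% covered) and 15 to 26 without each library, with 2 lost (matched number), 1 (stricter score) and 0 to 5 without each library. Gained H3K4me3 regions numbered 3 at the stricter score, 1 at 50% and 0 to 2 without each library, and lost ones 0 to 1. Shares of all regions were taken only in the main setting and at the matched number. GATA2 H3K27ac has no ratio without DMSO replicate 2, since the other DMSO library is at 0, nor has RUNX1 at the matched number or the stricter score. Depth is unknown, so how far it limits weak peaks cannot be given.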
